A study of Bos taurus with 8 samples.

Results

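The first epithelium of the bovine embryo, the trophectoderm, was compared with the inner cell mass on day 8 after fertilization. The members were the cells that the authors' cell table puts in the class MB TE or the class MB ICM, 37 and 51 cells with values, or 88 of the 286 cells measured. All came from wildtype bovine embryos, and the libraries pooled cells of morulae and blastocysts of several ages. TE stands for trophectoderm and ICM for inner cell mass in this field. The prefix MB is printed as the table gives it. The cell table puts all cells of both classes at day 8, and neither class carried an agent, an edit or an allele that the other lacked. The sources used here do not give how the classes were assigned, which embryos gave the cells or their sex. If the classes were made from the same values, genes that define a class are no independent evidence that it differs.

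The blastocyst has an outer epithelium and an inner group of cells. The trophectoderm is joined by tight junctions and desmosomes, has an apical side facing outward, pumps sodium so that fluid enters the cavity, and later builds the fetal part of the placenta. In cattle it stays unattached for a long time, elongates and secretes interferon tau and pregnancy-associated glycoproteins. The inner cell mass gives rise to the epiblast, which forms the fetus, and to the hypoblast (primitive endoderm), which lines the yolk sac.

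Each library was a pool of barcoded single cells, and polyadenylated RNA was captured with an oligo(dT) primer. A class average was used where a library held at least 3 cells of that class. MB TE therefore had 3 averages, from replicate 1 (21 cells), replicate 2 (12 cells) and replicate 3 (3 cells). MB ICM had 3 averages, from replicate 1 (24 cells), replicate 2 (21 cells) and replicate 5 (5 cells). Only replicates 1 and 2 gave an average of both classes. A single MB TE cell of replicate 5 and a single MB ICM cell of replicate 3 stayed out of the averages. Recovered depth ran from 49665 to 499109 reads per MB TE cell (median 198116) and from 2633 to 364384 reads per MB ICM cell (median 132481). Of the 51 MB ICM cells 8 held under 40000 reads, against 0 of 37 MB TE cells. The cell with 2633 reads was 1 of the 5 cells averaged in MB ICM replicate 5, each with equal weight. The 6 wildtype libraries used the same 48 cell barcodes, so a barcode names a cell only together with its library. Values are given as CPM, reads of a gene per 1000000 reads of the cell, averaged over the cells of a library. No label says that the libraries came from separate sets of embryos. The p-values therefore weigh differences against the spread between library averages, and that spread may be technical.

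Trophectoderm and inner cell mass differed in 1264 of the 12538 tested genes (10.1%), by limma with an adjusted p under 0.05. Of these, 749 (5.97% of those tested) were higher in MB TE and 515 (4.11%) were lower. Counts of called members in the gene lists below stand against these shares. The share of higher genes among the called ones was 59.3%, and it was 78.7% when log2 values of single cells were averaged in place of CPM values. The difference exceeded 2 on the log2 scale in 131 genes higher in MB TE and in 61 lower genes. All 3 MB TE averages lay above all 3 MB ICM averages in 12.7% of the tested genes, and the reverse held in 12.3%. Without replicate 2 the count of called genes fell to 635, of which 591 were among the 1264. It was 885 without replicate 1, 868 without replicate 3 and 953 without replicate 5, and genes lower in MB TE were 280 without replicate 3.

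**Figure D1:**
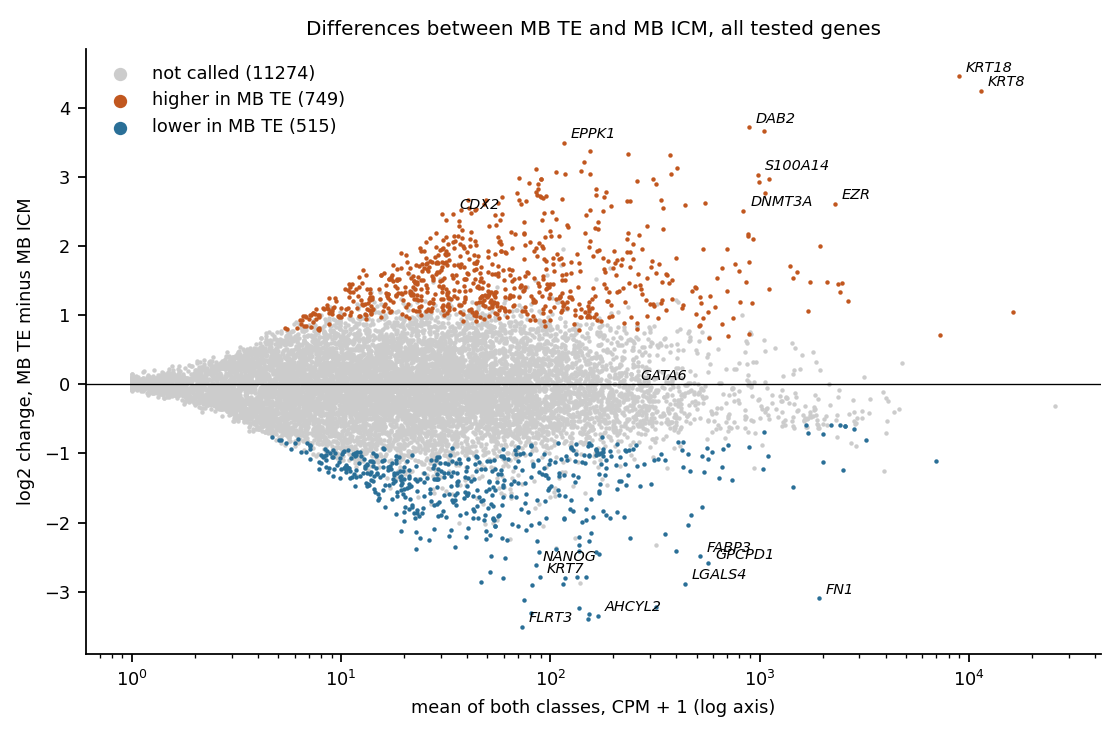
Log2 change (MB TE minus MB ICM, vertical axis) against the mean level of both classes in CPM plus 1 (log axis) for 12538 tested genes. Orange points are the 749 genes higher in MB TE, blue points the 515 lower genes and grey points the 11274 genes not called, and the keratins KRT18 and KRT8 stand at the upper right.

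Replicates 1 and 2, the libraries with an average of both classes, gave the same direction for 1259 of the 1264 called genes. They did so for 64.5% of all tested genes. These libraries entered the fit that made the calls, so the first share is a description. Across the 12538 genes the differences in replicate 1 and replicate 2 had a Pearson correlation of 0.58, over genes that share libraries and depth.

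**Figure D2:**
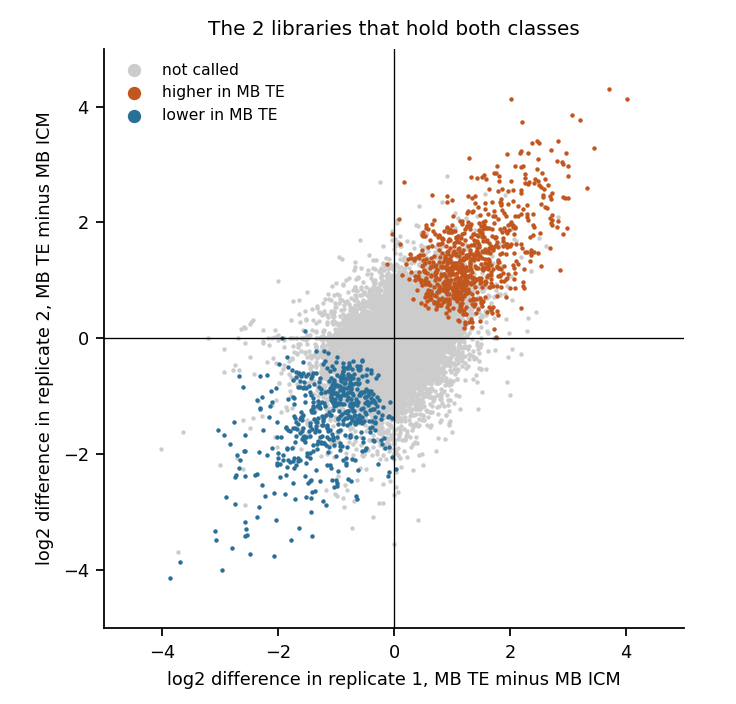
Log2 difference of MB TE minus MB ICM in replicate 1 (horizontal axis) against that in replicate 2 (vertical axis), 1 point per tested gene. Orange and blue points are genes called higher and lower in MB TE, and 1259 of the 1264 called genes differ in the same direction in both libraries.

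Markers of each lineage were described by class. They cannot check the labels if the classes were made from the same values. In single cells KRT8, an intermediate filament keratin of simple epithelia, ran from 4622 to 46677 CPM in MB TE (median 17915) and from 344 to 5067 CPM in MB ICM (median 777). Only 1 of 51 MB ICM cells reached the lowest MB TE cell. For its filament partner KRT18 that number was 3 of 51, and for the endocytic adaptor DAB2 it was 5 of 51. The trophectoderm factor CDX2 had a median of 46.4 CPM in MB TE cells and 0 in MB ICM cells, and the 2 classes overlapped in range. After each cell was thinned to 40000 reads, which left out the 8 shallow MB ICM cells, CDX2 was read in 27 of 37 MB TE cells (73.0%) and 5 of 43 MB ICM cells (11.6%). Without thinning the shares were 91.9% of MB TE and 27.5% of MB ICM cells. NANOG, a pluripotency factor of the epiblast, was read after thinning in 15 of 37 MB TE cells (40.5%) and 38 of 43 MB ICM cells (88.4%), against 78.4% and 86.3% without it. In the single cells outside the averages KRT8 stood at 33595 CPM (MB TE, replicate 5) and 2179 CPM (MB ICM, replicate 3). The latter cell also held 829 CPM of GATA3, the highest value among the 51 MB ICM cells, beside 8949 CPM of fibronectin (FN1).

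**Figure D3:**
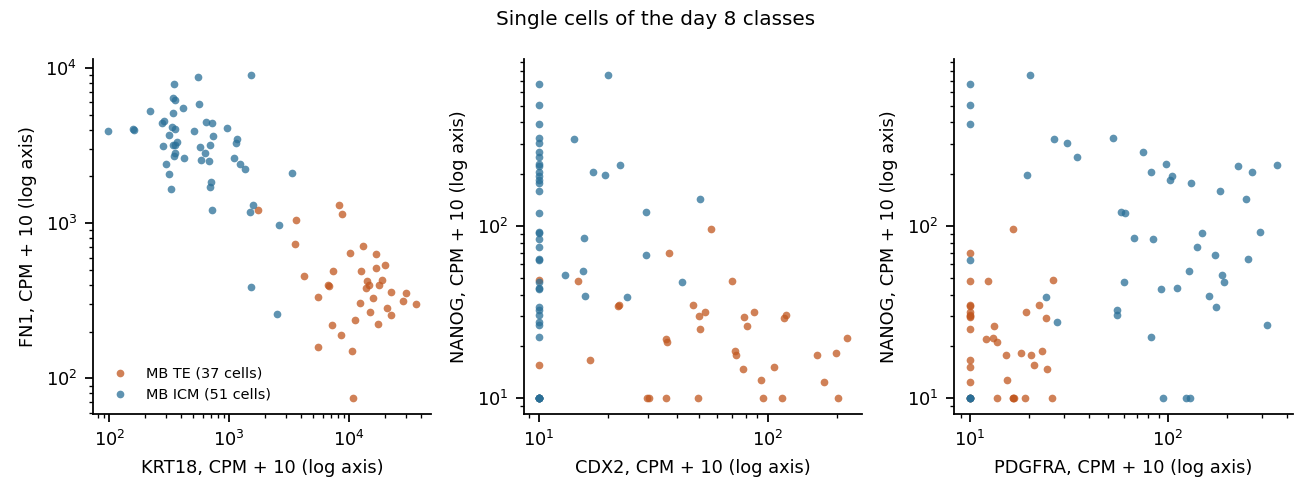
Single cells of MB TE (orange, 37 cells) and MB ICM (blue, 51 cells), with FN1 against KRT18, NANOG against CDX2 and NANOG against PDGFRA, all in CPM plus 10 on log axes. The classes lie mostly apart on FN1 and KRT18 but share part of the range of each gene. For KRT18, 3 of 51 MB ICM cells reach the lowest MB TE cell. The classes overlap on NANOG and CDX2, and most MB ICM cells with PDGFRA reads also have NANOG reads.

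Epiblast and hypoblast markers were read in the same inner cells. After thinning, 33 of 43 MB ICM cells held reads of both NANOG and the hypoblast receptor PDGFRA, 5 of NANOG alone, 3 of PDGFRA alone and 2 of neither. For SOX2 and PDGFRA the numbers were 26, 6, 10 and 1. In MB TE, which should lack both genes, 2 of 37 cells held NANOG and PDGFRA together, and 0 held SOX2 and PDGFRA together. A count of 0 of 37 allows a share of up to 8.11% (3 cells), by counting error only. The MB ICM averages cannot separate the 2 inner lineages.

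**Figure D4:**
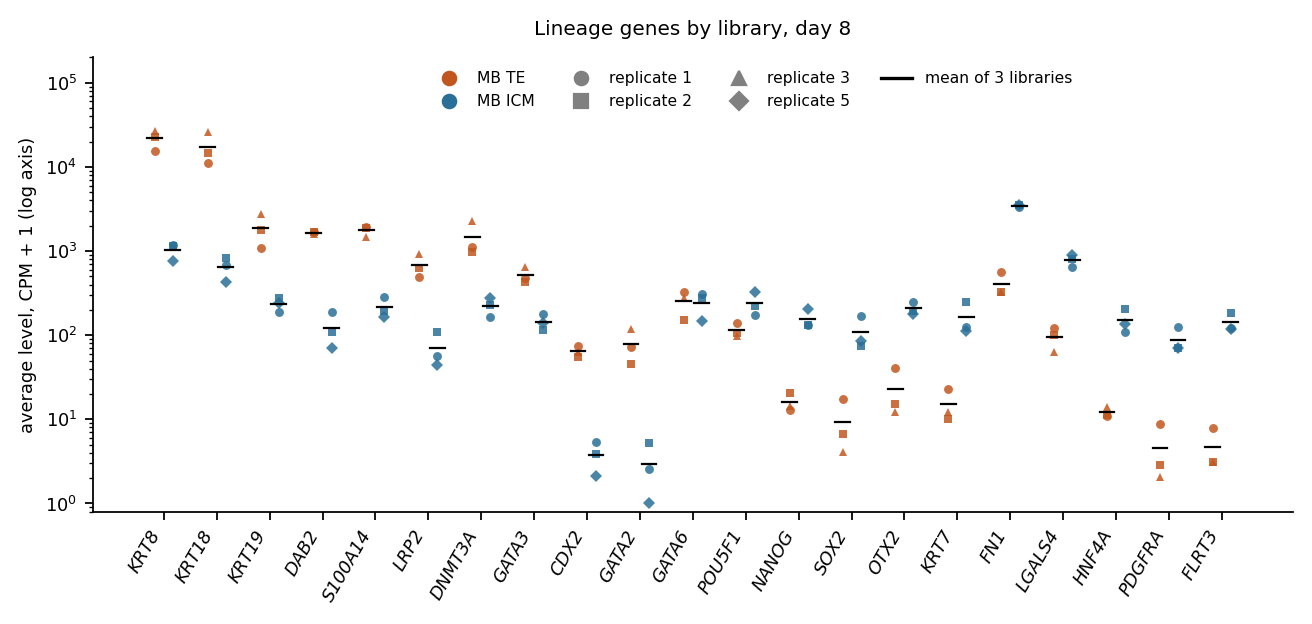
Library averages of lineage genes in CPM plus 1 (log axis), with MB TE in orange and MB ICM in blue, marker shapes for replicates and a bar for the mean of 3 libraries. The classes do not overlap for KRT8, CDX2, NANOG or FN1, and they overlap for GATA6.

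Of 21 tested transcription factors of the trophectoderm 10 rose and 0 fell in MB TE, with a median log2 change of 0.98 against -0.04 over all tested genes. CDX2, the homeobox factor of trophectoderm identity, averaged 72.9, 54.4 and 62.9 CPM in MB TE replicates 1, 2 and 3 and 4.31, 2.90 and 1.15 CPM in MB ICM replicates 1, 2 and 5 (log2 change 2.47, SE 0.33, adjusted p = 4.13e-05). GATA2, a zinc finger factor of trophoblast, averaged 71.2, 43.9 and 116 CPM in MB TE and 1.57, 4.17 and 0 CPM in MB ICM (log2 change 2.66, SE 0.37, adjusted p = 6.04e-05). Both factors were low in every MB ICM library and the groups did not overlap. Its relative GATA3 stood at 476, 427 and 642 CPM in MB TE and remained measurable at 179, 116 and 138 CPM in MB ICM.

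All 3 grainyhead-like factors, which drive epithelial genes, were among the rises. GRHL1 averaged 125, 88.6 and 137 CPM in MB TE and 17.03, 14.03 and 19.3 CPM in MB ICM (log2 change 2.17, SE 0.29, adjusted p = 4.06e-05). GRHL2 was at 28.3 ± 14.9 CPM in MB TE and 1.79 ± 1.32 CPM in MB ICM (SD, n = 3 each, adjusted p = 0.00157). GRHL3 had an adjusted p of 0.0175 and did not pass without replicate 2 (adjusted p = 0.157). ELF3, an epithelial factor of the ETS family, rose by 2.13 (adjusted p = 0.000311), and the zinc finger factor KLF6 by 1.40 (adjusted p = 0.00442). TFAP2C, the AP-2 gamma factor of trophoblast, averaged 294, 170.3 and 329 CPM in MB TE and 140.4, 73.3 and 109 CPM in MB ICM (log2 change 1.204, SE 0.26, adjusted p = 0.00444). Its groups did not overlap, and replicate 2 was the lowest library in both classes. With cells under 40000 reads left out TFAP2C did not pass (log2 change 0.97, adjusted p = 0.0595). TEAD4, the Hippo pathway factor that acts upstream of CDX2 in mouse, did not pass the test. It averaged 143, 88.1 and 111 CPM in MB TE against 183, 56.8 and 10.3 CPM in MB ICM, where replicate 1 exceeded every MB TE library and replicate 5 lay far below (log2 change 0.84, adjusted p = 0.331). TEAD4 did pass, as higher in MB TE, in 3 alternative settings. Its log2 change was 1.53 with log2 values averaged over cells (adjusted p = 0.00556), 1.13 with limma-voom (adjusted p = 0.0417) and 1.33 with cells under 40000 reads left out (adjusted p = 0.00865). The related TEAD3 was higher in MB TE (log2 change 1.53, adjusted p = 0.00142). With each replicate left out in turn, the adjusted p of TEAD3 was at most 0.0311.

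Simple-epithelium keratins and the plakins that anchor them were 6 members higher and 1 lower of 11 tested (median log2 change 1.16). KRT8 averaged 15477, 22754 and 27017 CPM in MB TE and 1179.8, 1138 and 771 CPM in MB ICM, and KRT18 11098, 14679 and 26199 CPM against 678, 829 and 423 CPM. In both keratins MB TE replicate 3, with 3 cells, was the highest library and MB ICM replicate 5 the lowest. KRT19, a keratin without the usual tail, averaged 1100.0, 1768 and 2762 CPM in MB TE and 186, 275 and 238 CPM in MB ICM (log2 change 2.77, SE 0.34, adjusted p = 1.8e-05). DSP, the desmosomal plakin that ties keratin to junctions, was at 405 ± 167 CPM in MB TE and 88.04 ± 39.4 CPM in MB ICM (log2 change 2.03, SE 0.34, adjusted p = 0.000423). EPPK1, the cytolinker epiplakin, averaged 172, 160.4 and 332 CPM against 14.4, 10.7 and 2.30 CPM. EVPL, envoplakin, had an adjusted p of 0.0387 and did not pass without replicate 1, 2, 4 or 5 (adjusted p = 0.0742, 0.211, 0.0531 and 0.054).

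The keratin KRT7 went the other way. It averaged 22.1, 9.19 and 11.1 CPM in MB TE and 126, 248 and 111 CPM in MB ICM (log2 change -2.79, SE 0.41, adjusted p = 9.51e-05). All MB ICM libraries lay above all MB TE libraries. In single cells the MB TE median was 7.50 CPM and the MB ICM median 117 CPM, and 36 of 37 MB TE cells stood at or below that MB ICM median.

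Genes of the actin cortex gave 9 rises and 0 falls of 24 (median log2 change 0.66). MYO6, the myosin that walks toward the pointed end of actin, averaged 78.5, 88.7 and 100.5 CPM against 20.7, 25.2 and 18.95 CPM (log2 change 1.61, SE 0.30, adjusted p = 0.00098). Beta-actin itself, ACTB, was at 17945, 23348 and 24681 CPM in MB TE and 9838, 10740.0 and 11020.0 CPM in MB ICM (log2 change 1.05, SE 0.17, adjusted p = 0.000342), with no overlap. The actin-binding protein TAGLN2 rose by 1.71 (adjusted p = 1.29e-05), the crosslinker ACTN4 by 1.96 (adjusted p = 0.0011), CNN2 by 1.26 (adjusted p = 0.00527) and LIMA1 by 1.39 (adjusted p = 0.00171). The gamma-actin gene ACTG1 and the myosin light chain MYL12A rose by 0.71 and 0.72. ACTG1 did not pass without replicate 1, 2, 3 or 5 (adjusted p = 0.0971, 0.178, 0.155 and 0.0853), nor MYL12A without replicate 1, 2, 3 or 5 (adjusted p = 0.12, 0.222, 0.0812 and 0.113).

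Calcium-binding S100 proteins and annexins followed, with 7 of 15 higher and 0 lower (median log2 change 0.85). S100A14 averaged 1919.9, 1888 and 1461 CPM in MB TE and 287, 190.2 and 165 CPM in MB ICM (log2 change 3.03, SE 0.25, adjusted p = 2.03e-07). S100A16, of the same family, averaged 1575, 2027 and 1654 CPM against 338, 252 and 108 CPM (log2 change 2.93, SE 0.28, adjusted p = 1.11e-06). S100A10 and its membrane partner ANXA2 form a complex. S100A10 rose from 317 ± 62.9 CPM in MB ICM to 1449.5 ± 414 CPM in MB TE (SD, n = 3 each, log2 change 2.17), and ANXA2 from 743 ± 222 to 3127 ± 1063 CPM (log2 change 1.998). ANXA3 (log2 change 2.39), ANXA6 (1.19) and ANXA1 (1.16) completed the set. ANXA6 did not pass without replicate 2 (adjusted p = 0.0527), and ANXA1 did not pass without replicate 1 or 2 (adjusted p = 0.156 and 0.348).

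**Figure D5:**
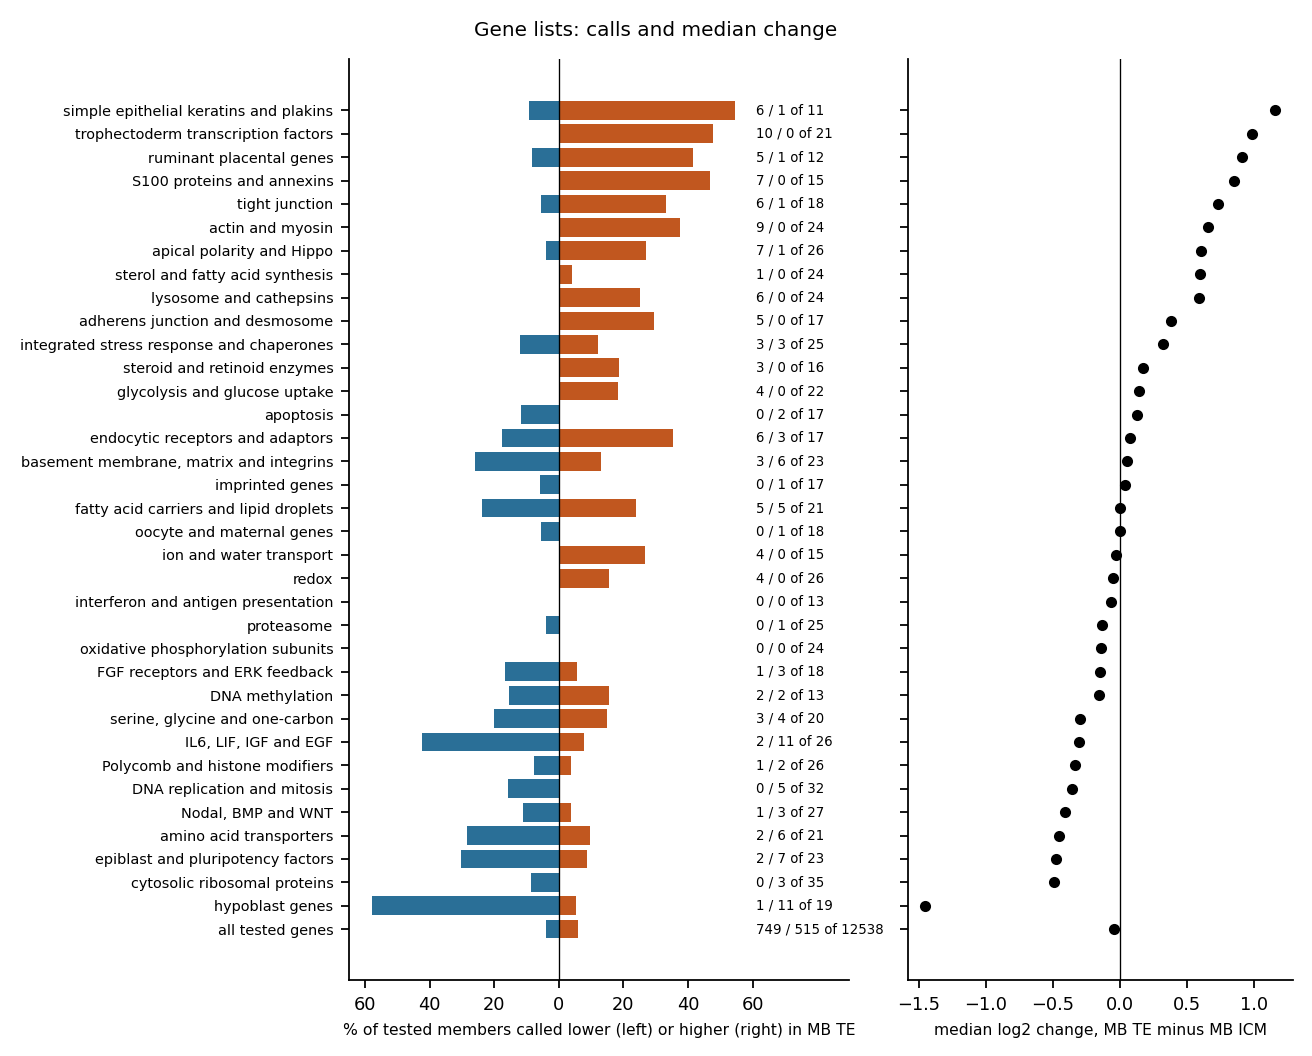
Left, the share of tested members of each gene list called lower (blue) or higher (orange) in MB TE, with the counts higher and lower of those tested. Right, the median log2 change of the tested members, from -1.45 for hypoblast genes to 1.16 for keratins and plakins, with all tested genes at the bottom.

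Tight junction genes were 6 higher and 1 lower of 18 (median log2 change 0.73). The claudin CLDN6 averaged 3139.6, 4099 and 3132 CPM in MB TE and 1437, 1294 and 1382 CPM in MB ICM (log2 change 1.34, SE 0.21, adjusted p = 0.000243), so its MB ICM level was far from 0. CLDN4 averaged 1419, 1590.2 and 1411 CPM against 508, 526 and 109 CPM, and MB ICM replicate 5 stood apart as the lowest library. Its log2 change was 2.10 (adjusted p = 0.00109) and 1.49 without replicate 5. CLDN23 averaged 50.9, 135 and 38.2 CPM in MB TE and 6.06, 23.6 and 0 CPM in MB ICM (log2 change 2.07, SE 0.39, adjusted p = 0.0011). Cingulin, CGN, rose by 1.66 and did not pass without replicate 3 (adjusted p = 0.0685), and CLDN3 rose by 2.004 and did not pass without replicate 2, 3 or 5 (adjusted p = 0.111, 0.122 and 0.101). The fall was CLDN10, a claudin that forms ion-selective pores, at 5.90 ± 5.36 CPM in MB TE and 45.7 ± 22.7 CPM in MB ICM (log2 change -1.68, SE 0.35, adjusted p = 0.00316).

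Adherens junction and desmosome genes gave 5 rises and 0 falls of 17 (median log2 change 0.38), and all 5 rises encode proteins of desmosomes. The desmosomal cadherin DSC2 averaged 135, 287 and 432 CPM in MB TE and 14.4, 43.8 and 9.69 CPM in MB ICM. PERP, a membrane protein of desmosomes, averaged 532, 624 and 724 CPM against 165, 159 and 175 CPM (log2 change 1.83, SE 0.24, adjusted p = 2.57e-05). The plaque proteins PKP2 (79.97, 67.04 and 144 CPM in MB TE, 15.4, 10.8 and 23.4 CPM in MB ICM, adjusted p = 0.000581) and JUP (log2 change 1.40, adjusted p = 0.0028) rose too. JUP also serves adherens junctions. PKP1 had an adjusted p of 0.0153 and did not pass without replicate 1 or 2 (adjusted p = 0.0821 and 0.122).

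Apical polarity and Hippo genes were 7 higher and 1 lower of 26 (median log2 change 0.61). Without replicate 2, 3 were higher and 0 lower. EZR, which links the apical membrane to actin, averaged 4154, 2836 and 4843 CPM in MB TE and 846, 569.7 and 447 CPM in MB ICM. AMOT, which binds YAP and actin, averaged 67.6, 74.4 and 129 CPM against 13.99, 6.62 and 7.45 CPM. The Par complex adaptor PARD6B averaged 107, 39.7 and 19.98 CPM in MB TE and 10.4, 4.10 and 1.54 CPM in MB ICM (log2 change 1.88, SE 0.41, adjusted p = 0.00422), and did not pass without replicate 2 (adjusted p = 0.0557). CDC42, the GTPase that activates that complex, rose by 1.10 (adjusted p = 0.0081). PRKCI, the atypical protein kinase C of the same complex, was the fall (log2 change -1.08, adjusted p = 0.0307), which did not pass without replicate 2, 3 or 5 (adjusted p = 0.231, 0.183 and 0.161). The Crumbs complex scaffolds PATJ (adjusted p = 0.0325) and MPP5 (PALS1, adjusted p = 0.0134) and the ezrin partner SLC9A3R1 (adjusted p = 0.043) were also higher. PATJ did not pass without replicate 1, 2 or 5 (adjusted p = 0.111, 0.114 and 0.0574), MPP5 without replicate 1 or 2 (adjusted p = 0.0657 and 0.164) and SLC9A3R1 without replicate 2, 3, 4 or 5 (adjusted p = 0.249, 0.0671, 0.0578 and 0.0606).

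Ion and water transport genes gave 4 rises and 0 falls of 15, while the median of the list was -0.03, near that of all tested genes. ATP1B3, a beta subunit of the sodium pump, averaged 1585, 2283 and 3096 CPM in MB TE and 741, 691 and 693 CPM in MB ICM (log2 change 1.63, SE 0.22, adjusted p = 4.02e-05). FXYD4, a regulatory subunit of the pump, averaged 565, 983 and 1256 CPM in MB TE and 61.7, 133 and 286 CPM in MB ICM (log2 change 2.63, SE 0.36, adjusted p = 7.64e-05). Libraries of the 2 classes did not overlap for either subunit. SLC9A3, an apical sodium and proton exchanger, averaged 25.1, 18.5 and 46.9 CPM in MB TE and 2.26, 0.855 and 4.21 CPM in MB ICM (log2 change 1.52, SE 0.34, adjusted p = 0.00462).

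Endocytic genes were 6 higher and 3 lower of 17 (median log2 change 0.08). DAB2, an adaptor for clathrin-coated pits, averaged 1669, 1696 and 1578 CPM in MB TE and 190.1, 108 and 68.7 CPM in MB ICM. LRP2 (megalin), a receptor that DAB2 binds, averaged 484, 629.7 and 928 CPM against 55.7, 108 and 43.5 CPM. The recycling GTPases RAB11A (952, 967 and 869 CPM against 361, 292 and 293 CPM, adjusted p = 8.24e-05) and RAB25 (175, 329 and 318 CPM against 22.2, 45.1 and 86.8 CPM, adjusted p = 0.000227) were higher in every MB TE library than in any MB ICM library. Clathrin heavy chain, CLTC, rose by 0.96 and did not pass without replicate 1, 2 or 3 (adjusted p = 0.16, 0.0571 and 0.0555). The LRP chaperone LRPAP1 rose by 1.18 and did not pass without replicate 1, 2, 3, 4 or 5 (adjusted p = 0.084, 0.0579, 0.181, 0.0559 and 0.103). Other receptors were lower in MB TE, namely SORL1 (-1.88, SE 0.36, adjusted p = 0.00123), the lipoprotein receptor SCARB1 (-1.83, SE 0.38, adjusted p = 0.00315) and the transferrin receptor TFRC (-1.45, SE 0.40, adjusted p = 0.0261). SCARB1 did not pass without replicate 2 (adjusted p = 0.114), and TFRC did not pass without replicate 2, 3 or 5 (adjusted p = 0.0792, 0.0668 and 0.12).

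Lysosomal genes were 6 higher and 0 lower of 24 (median log2 change 0.59). They included the proteases cathepsin B (CTSB, 326, 383 and 472 CPM in MB TE and 139.6, 117 and 179 CPM in MB ICM, adjusted p = 0.000689) and cathepsin Z (CTSZ, 120.4, 157 and 316 CPM against 27.98, 42.7 and 79.8 CPM, adjusted p = 0.00119). CTSA rose by 1.35 (adjusted p = 0.00208). Cathepsin L (CTSL) rose by 1.85 and did not pass without replicate 1 or 2 (adjusted p = 0.0686 and 0.199). The proton pump subunits ATP6V0D1 and ATP6V1A rose by 1.51 and 1.25. ATP6V0D1 did not pass without replicate 2 (adjusted p = 0.0664), and ATP6V1A did not pass without replicate 1 (adjusted p = 0.061).

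Ruminant placental genes were 5 higher and 1 lower of 12 (median log2 change 0.91). PAG2, a pregnancy-associated glycoprotein, averaged 116, 300.3 and 179.9 CPM in MB TE and 12.9, 19.4 and 4.12 CPM in MB ICM (log2 change 3.07, SE 0.41, adjusted p = 3.6e-05). PTGS2, which starts prostaglandin synthesis, averaged 563, 1018 and 654 CPM against 63.7, 102 and 222 CPM (log2 change 2.59, SE 0.39, adjusted p = 0.000215). PTGES, which makes prostaglandin E2, averaged 75.5, 162 and 229 CPM in MB TE and 15.5, 13.7 and 7.75 CPM in MB ICM (log2 change 2.78, SE 0.34, adjusted p = 1.67e-05). Both prostaglandin enzymes were higher in every MB TE library than in any MB ICM library. PLAC8 averaged 1578, 2048 and 2280.4 CPM against 189, 253 and 295 CPM. The interferon tau gene IFNT3 was at 167 ± 204 CPM in MB TE and 5.49 ± 7.01 CPM in MB ICM (SD, n = 3 each, log2 change 2.82, SE 0.58, adjusted p = 0.00467), and the MB TE libraries differed widely among themselves. Interferon tau and PAG genes have near-identical copies, so the split of their reads is uncertain. GCM1, a factor of placental syncytium in other mammals, was lower, at 1.37 ± 1.28 CPM in MB TE and 26.7 ± 11.3 CPM in MB ICM (log2 change -1.68, SE 0.35, adjusted p = 0.00315).

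Steroid and retinoid enzymes gave 3 rises and 0 falls of 16 (median log2 change 0.18). HSD17B11 averaged 439, 227 and 463 CPM in MB TE and 108, 76.1 and 122 CPM in MB ICM (log2 change 1.70, SE 0.29, adjusted p = 0.00049). HSD3B1, which completes progesterone synthesis, averaged 72.7, 124 and 18.2 CPM in MB TE and 5.54, 25.6 and 7.10 CPM in MB ICM. MB TE replicate 3 lay below MB ICM replicate 2, and the call (log2 change 1.65, adjusted p = 0.0186) did not hold without replicate 1, 2 or 5 (adjusted p = 0.203, 0.0827 and 0.0765). The log2 change was 2.29 without replicate 3. DHRS3, a retinaldehyde reductase, rose by 1.23 and did not pass without replicate 1 or 3 (adjusted p = 0.0609 and 0.0596). CYP11A1, the enzyme that opens steroid synthesis, averaged 10.2, 109 and 35.8 CPM in MB TE and 0.668, 7.14 and 9.57 CPM in MB ICM and did not pass (adjusted p = 0.0978). CYP11A1 was called higher with log2 values averaged over cells (log2 change 1.25, adjusted p = 0.0332) and with only the MB TE and MB ICM averages in the fit (1.69, adjusted p = 0.0333).

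Fatty acid handling split in both directions, with 5 members higher and 5 lower of 21 (median log2 change 0.00). The binding proteins FABP5 and FABP3 went opposite ways. FABP5 averaged 186, 405 and 209 CPM in MB TE and 70.5, 38.2 and 11.7 CPM in MB ICM (log2 change 2.52, SE 0.39, adjusted p = 0.00018), with a log2 change of 3.18 without replicate 1. FABP3 averaged 317, 95.4 and 74.5 CPM in MB TE and 877, 825 and 923 CPM in MB ICM (log2 change -2.49, SE 0.37, adjusted p = 0.000188), and MB TE replicate 1 was the highest of its class. The acyl-CoA synthetases ACSL4 (119, 238 and 192 CPM against 36.7, 57.97 and 9.97 CPM) and ACSL3 (1298, 948 and 1299.8 CPM against 272, 479 and 248 CPM) were higher in MB TE, with adjusted p = 0.000253 and 0.000292. Droplet coat proteins were also divided, PLIN3 up by 1.39 (adjusted p = 0.0061) and PLIN2 at -1.92 (adjusted p = 0.0043). PLIN3 did not pass without replicate 3 (adjusted p = 0.0596), nor PLIN2 without replicate 2 (adjusted p = 0.0745). The lipase PNPLA2 rose by 1.08 and did not pass without replicate 1, 2, 3 or 5 (adjusted p = 0.0629, 0.158, 0.0754 and 0.132). The lipoprotein genes APOA1 (-1.77) and MTTP (-1.09) and the droplet protein CIDEB (-1.12) were lower. APOA1 did not pass without replicate 3 (adjusted p = 0.0576), MTTP without replicate 2 or 3 (adjusted p = 0.276 and 0.0889) and CIDEB without replicate 1, 2 or 3 (adjusted p = 0.0653, 0.172 and 0.0621). Of 24 sterol and fatty acid synthesis genes only ACLY was called (log2 change 1.13, adjusted p = 0.0365), although the list's median was 0.60. ACLY did not pass without replicate 1, 3 or 5 (adjusted p = 0.165, 0.111 and 0.0711).

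Pluripotency factors of the epiblast were lower in MB TE, 7 of 23, while 2 were higher (median log2 change -0.47). NANOG averaged 11.8, 19.6 and 13.5 CPM in MB TE and 129, 129.5 and 203 CPM in MB ICM. SOX2 averaged 16.2, 5.69 and 3.11 CPM in MB TE and 167, 72.4 and 84.5 CPM in MB ICM. For both genes every MB ICM library lay above every MB TE library, and MB TE replicate 1 held the most SOX2 of its class. OTX2, a homeobox factor of epiblast and head, averaged 39.9, 14.2 and 11.1 CPM against 249, 194 and 177 CPM (log2 change -2.88, SE 0.37, adjusted p = 2.6e-05). POU5F1 (OCT4), known to persist in bovine trophectoderm, averaged 139.7, 106 and 95.97 CPM in MB TE and 174, 224 and 327 CPM in MB ICM (log2 change -0.98, SE 0.30, adjusted p = 0.0385). The library averages did not overlap, but the call did not hold without replicate 2, 3 or 5 (adjusted p = 0.187, 0.128 and 0.111). In MB ICM replicate 5 the cell with 2633 reads held 1139 CPM, against 194, 66.1, 132 and 104 CPM in its other cells. DPPA4 averaged 107, 128 and 83.4 CPM against 340.2, 198 and 411 CPM. SALL4, a zinc finger factor, changed by -1.51 and did not pass without replicate 2 (adjusted p = 0.158), and KLF17 changed by -1.17 and did not pass without replicate 1, 2, 3 or 5 (adjusted p = 0.0738, 0.0711, 0.0714 and 0.0674).

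Naive pluripotency factors were not uniformly low in the trophectoderm. ESRRB was at 69.2 ± 34.7 CPM in MB TE and 23.3 ± 12.7 CPM in MB ICM (SD, n = 3 each, log2 change 1.19, SE 0.33, adjusted p = 0.0235), and did not pass without replicate 1, 2, 3 or 5 (adjusted p = 0.0816, 0.125, 0.0539 and 0.0558). TFCP2L1 was at 136 ± 59.7 CPM in MB TE and 60.3 ± 11.4 CPM in MB ICM (log2 change 0.93, SE 0.28, adjusted p = 0.0392), and did not pass without replicate 1, 2, 3 or 5 (adjusted p = 0.0754, 0.0862, 0.16 and 0.128).

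Hypoblast genes gave 11 falls and 1 rise of 19 tested (median log2 change -1.45). The fibronectin gene FN1 averaged 559.7, 322 and 327 CPM in MB TE and 3318, 3479.5 and 3516 CPM in MB ICM, where the libraries lay close together. PDGFRA, the receptor that marks hypoblast precursors, averaged 7.83, 1.89 and 1.07 CPM in MB TE and 123, 69.5 and 69.7 CPM in MB ICM. FLRT3, a membrane protein that binds FGF receptors, averaged 6.85, 2.14 and 2.15 CPM against 121, 184 and 117 CPM. HNF4A averaged 9.84, 10.3 and 13.2 CPM in MB TE and 109, 206 and 134 CPM in MB ICM. RSPO3, a secreted enhancer of WNT signalling, averaged 5.79, 7.28 and 2.04 CPM in MB TE and 23.4, 84.3 and 45.3 CPM in MB ICM (log2 change -1.90, SE 0.33, adjusted p = 0.000647). APOA1 was counted here as well as among the lipid genes.

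GATA6, the hypoblast factor upstream of these genes in mouse, did not separate the classes. It averaged 329, 151 and 277 CPM in MB TE and 311, 274 and 145 CPM in MB ICM (log2 change -0.01, SE 0.33, adjusted p = 1). After thinning it was read in 37 of 37 MB TE cells and 43 of 43 MB ICM cells. SOX17, a later hypoblast factor, was too low to be tested, with averages of 1.40, 0 and 0 CPM in MB TE and 0, 1.44 and 0 CPM in MB ICM.

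Basement membrane, matrix and integrin genes were 3 higher and 6 lower of 23 (median log2 change 0.05). The collagen IV chains COL4A1 and COL4A2 averaged 127, 32.6 and 11.97 and 19.9, 10.4 and 10.2 CPM in MB TE, and 439, 279.7 and 133 and 71.5, 74.96 and 38.5 CPM in MB ICM. COL4A1 changed by -2.46 and did not pass without replicate 2 (adjusted p = 0.0646), and COL4A2 changed by -1.64 and did not pass without replicate 2 (adjusted p = 0.0713). COL18A1 (-1.94, SE 0.40, adjusted p = 0.00281), nidogen NID1 (-1.76, SE 0.50, adjusted p = 0.0313) and SPARC (-1.16, SE 0.35, adjusted p = 0.0392) were lower too. NID1 did not pass without replicate 1 (adjusted p = 0.29), and SPARC did not pass without replicate 2, 3, 4 or 5 (adjusted p = 0.438, 0.121, 0.052 and 0.0775). In contrast the laminin chain LAMA1 was at 46.4 ± 42.9 CPM in MB TE and 2.49 ± 1.54 CPM in MB ICM (log2 change 1.82, SE 0.44, adjusted p = 0.0103), and did not pass without replicate 1 or 2 (adjusted p = 0.134 and 0.105). The laminin-binding integrin subunit ITGA3 averaged 19.4, 24.5 and 16.3 CPM in MB TE and 0.747, 0.996 and 0 CPM in MB ICM (log2 change 1.45, SE 0.28, adjusted p = 0.0013). The collagen-modifying enzyme P4HA2 rose by 1.67 and did not pass without replicate 3 (adjusted p = 0.083).

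Cytokine and growth factor genes were 11 lower and 2 higher in MB TE of 26 tested (median log2 change -0.31). Both rises were ligands, PDGFA at 68.4 ± 37.9 CPM in MB TE and 5.25 ± 3.85 CPM in MB ICM (log2 change 2.24, SE 0.40, adjusted p = 0.00071) and HBEGF, a ligand of the EGF receptor, at 44.6 ± 2.50 and 6.28 ± 5.96 CPM (log2 change 1.78, SE 0.31, adjusted p = 0.000651). Among receptors, PDGFRA was on the MB ICM side, as was KIT, which averaged 71.7, 14.4 and 13.9 CPM in MB TE and 269.7, 262 and 249 CPM in MB ICM (log2 change -2.78, SE 0.42, adjusted p = 0.000205). The interleukin-6 axis was lower in MB TE at each of 3 steps, the receptor IL6R (-1.96, SE 0.35, adjusted p = 0.000797), the shared subunit IL6ST (-2.04, SE 0.46, adjusted p = 0.00666) and the signal transducer STAT3 (-1.86, SE 0.34, adjusted p = 0.000859). IL6ST did not pass without replicate 2 (adjusted p = 0.0646).

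Binding proteins of insulin-like growth factor were lower in MB TE for 4 of the members called. IGFBP4 averaged 1.88, 2.07 and 1.07 CPM in MB TE and 38.4, 44.6 and 63.1 CPM in MB ICM (log2 change -2.26, SE 0.33, adjusted p = 8.52e-05). IGFBP3 (-1.93), IGFBP5 (-1.89) and IGFBP2 (-1.43) were the others, and IGFBP2 did not pass without replicate 1 or 3 (adjusted p = 0.107 and 0.0559). The heparin-binding growth factor midkine, MDK, averaged 17.03, 17.1 and 9.93 CPM in MB TE and 78.9, 83.4 and 108 CPM in MB ICM (log2 change -1.96, SE 0.29, adjusted p = 0.000118). Its relative PTN changed by -1.50 and did not pass without replicate 2, 3 or 5 (adjusted p = 0.081, 0.0663 and 0.115).

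FGF receptors and ERK feedback genes were 3 lower and 1 higher of 18 (median log2 change -0.14). That is 16.7% lower and 5.56% higher, against 4.11% and 5.97% over all tested genes. FGFR4 averaged 14.7, 16.4 and 5.86 CPM in MB TE and 89.8, 99.7 and 75.6 CPM in MB ICM (log2 change -2.18, SE 0.31, adjusted p = 7.77e-05). KLB, a co-receptor for hormone-like FGFs, averaged 0.955, 0.956 and 0 CPM in MB TE and 5.38, 30.6 and 22.2 CPM in MB ICM and did not pass without replicate 2 (adjusted p = 0.126). SPRY2, a feedback inhibitor of ERK signalling, averaged 15.8, 16.5 and 7.29 CPM against 35.8, 110.1 and 42.97 CPM and did not pass without replicate 2 (adjusted p = 0.0825). SPRED1, also an inhibitor of that pathway, was higher in MB TE (log2 change 1.10, adjusted p = 0.0273), and did not pass without replicate 1, 2, 3 or 5 (adjusted p = 0.103, 0.075, 0.0798 and 0.067).

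Nodal, BMP and WNT genes were 3 lower and 1 higher of 27 (median log2 change -0.41). That is 11.1% lower and 3.70% higher, against 4.11% and 5.97% over all tested genes. SMAD7, an inhibitor of TGF-beta and BMP signalling, averaged 77.4, 30.3 and 93.3 CPM in MB TE and 8.59, 7.49 and 6.16 CPM in MB ICM (log2 change 1.99, SE 0.33, adjusted p = 0.000372). LEFTY2, a secreted Nodal inhibitor, averaged 0.115, 0 and 0 CPM in MB TE and 22.8, 4.86 and 8.79 CPM in MB ICM (log2 change -1.08, SE 0.26, adjusted p = 0.00796) and did not pass without replicate 3 (adjusted p = 0.0545). The activin receptor ACVR2B changed by -1.32 and did not pass without replicate 2 or 3 (adjusted p = 0.333 and 0.0883). RSPO3, given above, was the third of the falls.

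Glucose and lactate genes gave 4 rises and 0 falls of 22 (median log2 change 0.14). They were 3 sugar or lactate transporters and a mitochondrial kinase. The monocarboxylate transporter SLC16A1 averaged 446, 507 and 508 CPM in MB TE and 167, 157 and 137 CPM in MB ICM (log2 change 1.61, SE 0.26, adjusted p = 0.000255). SLC2A5, a fructose transporter, averaged 255, 169.6 and 318 CPM against 93.6, 29.3 and 56.03 CPM (log2 change 2.07, SE 0.42, adjusted p = 0.00281). PDK1, which restrains pyruvate entry into mitochondria, averaged 41.5, 28.9 and 29.3 CPM in MB TE and 5.76, 6.92 and 3.23 CPM in MB ICM, and did not pass without replicate 1 (adjusted p = 0.0705). The glucose transporter SLC2A3 rose by 1.05 (adjusted p = 0.027), and did not pass without replicate 1, 2 or 5 (adjusted p = 0.181, 0.186 and 0.0611).

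Of 24 oxidative phosphorylation subunits 0 were called (median log2 change -0.14) by limma. At an unadjusted p under 0.05 the count was 0 higher and 2 lower, and limma-voom on the recovered reads called 0. ATP5F1A, the catalytic-core alpha subunit of ATP synthase, averaged 1505, 1394 and 2070.2 CPM in MB TE and 1321, 1225 and 1785 CPM in MB ICM (adjusted p = 0.669).

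Amino acid transporters were 6 lower and 2 higher in MB TE of 21 (median log2 change -0.46). Members of 1 family went in opposite directions. The glutamate transporter SLC1A1 averaged 74.7, 41.9 and 55.4 CPM in MB TE and 2.79, 1.83 and 0 CPM in MB ICM (log2 change 2.46, SE 0.29, adjusted p = 1.07e-05). Its relative SLC1A3, also a glutamate transporter, averaged 14.5, 17.2 and 9.08 CPM in MB TE and 116, 128 and 61.6 CPM in MB ICM (log2 change -2.21, SE 0.33, adjusted p = 0.000115). The neutral amino acid transporter SLC1A5 was lower (-1.42, SE 0.32, adjusted p = 0.00495). SLC1A4 was lower too (-1.89, SE 0.40, adjusted p = 0.00353), with a log2 change of -1.30 without replicate 3, and did not pass without replicate 2 (adjusted p = 0.0593). SLC7A7, a light chain that exports cationic amino acids, averaged 30.6, 15.1 and 19.7 CPM in MB TE and 158, 209 and 265 CPM in MB ICM (log2 change -2.80, SE 0.31, adjusted p = 4.4e-06). Its heavy chain SLC3A2 changed by -1.30 and did not pass without replicate 2, 3 or 5 (adjusted p = 0.116, 0.0671 and 0.055). SLC7A8 changed by -1.09 and did not pass without replicate 2 (adjusted p = 0.267). SLC36A1, a lysosomal transporter, rose by 1.08 and did not pass without replicate 1, 2, 3 or 5 (adjusted p = 0.109, 0.102, 0.079 and 0.0517).

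Serine, glycine and one-carbon genes were 4 lower and 3 higher of 20 (median log2 change -0.30). The serine synthesis enzyme PHGDH averaged 35.4, 85.6 and 24.6 CPM in MB TE and 264, 358 and 165 CPM in MB ICM (log2 change -2.14, SE 0.44, adjusted p = 0.00328), and did not pass without replicate 1 (adjusted p = 0.0564). PSAT1, the next enzyme of that pathway, changed by -1.34 and did not pass without replicate 1 or 2 (adjusted p = 0.118 and 0.102). CBS, which joins homocysteine to serine, averaged 26.3, 33.1 and 20.8 CPM in MB TE and 65.7, 136 and 125 CPM in MB ICM (log2 change -1.63, SE 0.30, adjusted p = 0.000849). CTH, the enzyme after CBS, was instead higher (log2 change 1.05) and did not pass without replicate 2 or 5 (adjusted p = 0.186 and 0.0901). The mitochondrial glycine cleavage protein GCSH (1.34) and the folate enzyme MTHFD1L (1.14) were higher in MB TE. GCSH did not pass without replicate 2 (adjusted p = 0.0901), and MTHFD1L did not pass without replicate 1, 2 or 3 (adjusted p = 0.0962, 0.0502 and 0.0747). The asparagine synthetase ASNS changed by -1.14 and did not pass without replicate 2, 3, 4 or 5 (adjusted p = 0.216, 0.132, 0.0553 and 0.0731).

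Redox genes gave 4 rises (15.4%, against 5.97% over all tested genes) and 0 falls of 26 (median log2 change -0.05). Thioredoxin, TXN, averaged 578, 671 and 875 CPM in MB TE and 271, 268 and 283 CPM in MB ICM (log2 change 1.41, SE 0.28, adjusted p = 0.00226). The antioxidant-response factor NFE2L2 averaged 158, 172 and 174 CPM against 79.8, 77.9 and 51.2 CPM (log2 change 1.19, SE 0.29, adjusted p = 0.00898), and did not pass without replicate 2 (adjusted p = 0.0702). GCLM, of glutathione synthesis, did not pass without replicate 2, 3 or 5 (adjusted p = 0.0534, 0.0907 and 0.105), and the peroxidase GPX4 did not pass without replicate 1, 2, 3 or 5 (adjusted p = 0.0706, 0.081, 0.119 and 0.195).

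DNA methylation genes were 2 higher and 2 lower of 13, or 15.4% each way, against 5.97% and 4.11% over all tested genes (median log2 change -0.16). DNMT3A, which places new methylation, averaged 1104, 985 and 2262 CPM in MB TE and 163, 227 and 275 CPM in MB ICM. TET1, which oxidises methylcytosine, averaged 407, 329 and 449 CPM against 175, 148 and 97.003 CPM. The maintenance enzyme DNMT1 averaged 49.6, 40.2 and 2.04 CPM in MB TE and 93.3, 91.4 and 540.1 CPM in MB ICM, and 1 library on each side was far from the others. Its log2 change of -2.32 became -1.54 without replicate 3 and -1.49 without replicate 5, and did not pass without replicate 3 or 5 (adjusted p = 0.145 and 0.0976). TRIM28, a corepressor that protects imprints, changed by -0.93 and did not pass without replicate 1 or 2 (adjusted p = 0.0773 and 0.0674). Of 26 Polycomb and histone modifier genes 1 rose and 2 fell (3.85% and 7.69%), against 5.97% and 4.11% over all tested genes. The deacetylases HDAC8 (-1.48, SE 0.31, adjusted p = 0.00316) and HDAC2 (-1.41, SE 0.33, adjusted p = 0.00726) were lower and the remodeller CHD7 was higher (1.60, SE 0.44, adjusted p = 0.0225). HDAC8 did not pass without replicate 2 (adjusted p = 0.11), HDAC2 without replicate 2 or 5 (adjusted p = 0.0678 and 0.0612) and CHD7 without replicate 1 or 2 (adjusted p = 0.116 and 0.0767).

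DNA replication and mitosis genes were 5 lower and 0 higher of 32 (median log2 change -0.36). TOP2A, which untangles replicated DNA, averaged 327, 283 and 460.1 CPM in MB TE and 819, 634 and 1885 CPM in MB ICM (log2 change -1.39, SE 0.30, adjusted p = 0.00385). MB ICM replicate 5 was the highest library. The replication clamp PCNA averaged 92.5, 148 and 139 CPM against 225, 289.5 and 256 CPM (log2 change -0.96, SE 0.24, adjusted p = 0.0119), and did not pass without replicate 1 or 2 (adjusted p = 0.105 and 0.0924). CCNE1, the cyclin of S phase entry, changed by -1.52 and did not pass without replicate 2 (adjusted p = 0.0698). The helicase subunits MCM2 (-1.01) and MCM5 (-0.76) were the other two. MCM2 did not pass without replicate 1, 3 or 5 (adjusted p = 0.0846, 0.147 and 0.0995), nor MCM5 without replicate 1, 2 or 5 (adjusted p = 0.13, 0.349 and 0.0962). Among 17 apoptosis genes PMAIP1, which promotes cell death, changed by -1.69 and did not pass without replicate 1, 2, 3 or 5 (adjusted p = 0.0685, 0.0703, 0.0663 and 0.101).

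Of 25 stress response and chaperone genes 3 rose and 3 fell. HSP90B1, a chaperone of secreted and membrane proteins, averaged 1265, 1387 and 1127 CPM in MB TE and 540.3, 678 and 489 CPM in MB ICM (log2 change 1.17, SE 0.20, adjusted p = 0.00049). HSPA5, the main chaperone of that compartment, rose by 0.96 and did not pass without replicate 1 or 2 (adjusted p = 0.103 and 0.0823), and its cofactor DNAJB9 rose by 1.08 and did not pass without replicate 1 or 2 (adjusted p = 0.137 and 0.36). The cytosolic HSP90AB1 averaged 2447, 2472 and 2055 CPM in MB TE and 4276, 3896 and 4089.5 CPM in MB ICM (log2 change -0.80, SE 0.16, adjusted p = 0.0024). The stress-induced CHAC1 changed by -1.37 and did not pass without replicate 2, 3 or 5 (adjusted p = 0.115, 0.152 and 0.0711), and ASNS, given above, was the other fall.

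Cytosolic ribosomal protein genes had a median log2 change of -0.49, and 34 of 35 lay below 0. At an unadjusted limma p under 0.05, 25 of the 35 were lower and 0 higher. By adjusted p RPLP1, RPS15 and RPL14 passed, with log2 changes of -0.60, -0.61 and -0.64. None of the 3 passed without replicate 1, 2, 3 or 5, where adjusted p ran from 0.0609 to 0.216. With TMM scaling of the averages they did not pass either (limma adjusted p = 0.168, 0.185 and 0.193), and limma-voom called 0 of the 35. The median differed from that of all tested genes by -0.44, and pseudogene copies of ribosomal protein genes make the split of their reads uncertain. Interferon and antigen presentation genes gave 0 calls of 13 by limma, 0 at an unadjusted p under 0.05 and 0 by limma-voom. Single genes were lower in MB TE among 17 imprinted genes (SNRPN, -0.95, SE 0.29, adjusted p = 0.0368), 25 proteasome genes (PSMA7, -1.12, SE 0.34, adjusted p = 0.0465) and 18 oocyte genes (KIT). These lists had 5.88%, 4.0% and 5.56% of tested members lower, near the 4.11% over all tested genes. SNRPN did not pass without replicate 1, 2, 3 or 5 (adjusted p = 0.0685, 0.081, 0.151 and 0.18), nor PSMA7 without replicate 3, 5 or 6 (adjusted p = 0.227, 0.227 and 0.0541).

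Several of the largest differences lay outside the lists. The membrane protease PRSS8, which activates epithelial sodium channels, averaged 192, 348 and 333 CPM in MB TE and 8.59, 26.9 and 16.98 CPM in MB ICM. PLS1, an actin bundler of microvilli, averaged 393, 688 and 991 CPM against 33.5, 41.1 and 90.4 CPM (log2 change 3.31, SE 0.44, adjusted p = 6.43e-05). The actin-binding protein COTL1 averaged 457, 489 and 1253 CPM in MB TE and 61.01, 118 and 26.9 CPM in MB ICM (log2 change 3.13, SE 0.42, adjusted p = 6.89e-05). MB TE replicate 3 was far above the other two libraries for COTL1. ARPC1B, a subunit of the actin-branching Arp2/3 complex, averaged 118, 314 and 379.7 CPM against 23.01, 25.6 and 2.69 CPM (log2 change 3.21). PLLP, a membrane protein of epithelia and myelin, averaged 201, 276 and 290.2 CPM in MB TE and 30.8, 17.7 and 15.5 CPM in MB ICM (log2 change 3.08, SE 0.30, adjusted p = 1.11e-06). The glycolipid enzyme A4GALT averaged 219, 147 and 288 CPM against 12.8, 15.9 and 13.03 CPM (log2 change 3.03, SE 0.36, adjusted p = 1.02e-05). SLC35G1 (3.33), FLVCR2 (2.98), FADS3 (2.97) and UNC13D (2.96) were higher in MB TE as well. Without replicate 1 the log2 changes of ARPC1B and SLC35G1 were 3.88 and 3.94, and without replicate 2 that of COTL1 was 3.74.

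On the inner cell mass side AHCYL2, a relative of the enzyme that clears S-adenosylhomocysteine, averaged 31.6, 14.1 and 22.8 CPM in MB TE and 341, 259 and 334 CPM in MB ICM (log2 change -3.35, SE 0.37, adjusted p = 4.4e-06). TMEM8A averaged 9.07, 5.71 and 5.14 CPM against 97.5, 196 and 163 CPM (log2 change -3.31, SE 0.36, adjusted p = 4.19e-06). SLC4A7, a sodium bicarbonate transporter, averaged 13.1, 7.98 and 0 CPM in MB TE and 97.9, 108 and 75.7 CPM in MB ICM (log2 change -2.71, SE 0.34, adjusted p = 1.82e-05). GPCPD1, which splits glycerophosphocholine, averaged 343, 82.2 and 120.3 CPM against 937, 973 and 955 CPM, and its log2 change of -2.59 was -3.21 without replicate 1. Replicate 1 was the highest MB TE library for GPCPD1. FAM43B (-3.11) and the acyl-CoA synthetase relative ACSF2 (-2.79) were lower in MB TE as well. RN7SL1, the RNA of the signal recognition particle, averaged 32.7, 3.01 and 0 CPM in MB TE and 609, 217 and 35.2 CPM in MB ICM. It lacks a natural poly(A) tail and has many copies, and it did not pass without replicate 1, 2 or 3 (adjusted p = 0.0522, 0.159 and 0.107). The peptide gene GRP averaged 21.1, 21.7 and 0 CPM in MB TE and 391, 451 and 27.7 CPM in MB ICM, and did not pass without replicate 1, 2 or 3 (adjusted p = 0.151, 0.0745 and 0.106). For GRP the lowest MB ICM library, replicate 5, lay close to the MB TE range.

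Whether the day 8 difference persisted was tested against day 9, where LB TE (averages of replicates 3 and 5) was set against LB EPI, the table's epiblast class (averages of replicates 2, 3 and 5). The cell classes do not share cells, but replicates 2, 3 and 5 gave averages on both days. On day 9, 1036 genes were higher in LB TE (8.26%) and 865 lower (6.9%). Of the genes higher on day 8, 492 were higher on day 9 too, 65.7% of the day 8 genes and 47.5% of the day 9 genes. Of the lower genes 210 were lower on both days, 40.8% and 24.3%. Directions crossed between the days in 4 genes, 1 higher and then lower and 3 lower and then higher.

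The difference between days was called for 46 genes (0.367%), 27 in the positive and 19 in the negative direction. Of these genes 16 also had a day 8 call. Among them were 3 hypoblast genes, and the day 9 comparison sets LB TE against epiblast alone. PDGFRA was at 9.08 CPM in LB TE against 19.9 CPM in LB EPI, FLRT3 at 4.37 CPM in LB TE against 16.4 CPM in LB EPI and FN1 at 244 CPM in LB TE against 605 CPM in LB EPI on day 9, and their day 9 minus day 8 differences were positive. PHGDH reversed its order, at 139 CPM in LB TE against 57.2 CPM in LB EPI on day 9 (difference 3.66, SE 0.66, adjusted p = 0.0185), as did SLC6A20, an imino acid transporter. SLC6A20 was at 51.1 ± 25.2 CPM in MB TE and 164 ± 71.7 CPM in MB ICM (SD, n = 3 each) on day 8, and at 103 CPM in LB TE and 23.7 CPM in LB EPI on day 9. Its day 8 call did not hold without replicate 2 (adjusted p = 0.0997). FOLR1, the folate receptor, was at 1078, 918 and 798 CPM in MB TE and 827, 835 and 768 CPM in MB ICM, and at 935 CPM in LB TE against 97.4 CPM in LB EPI (difference 2.87, SE 0.43, adjusted p = 0.00232). ERAS, a Ras protein of pluripotent cells, was at 6.57, 4.93 and 29.3 CPM in MB TE and 2.16, 15.7 and 23.5 CPM in MB ICM, and at 9.40 CPM in LB TE against 245 CPM in LB EPI (difference -3.78, SE 0.58, adjusted p = 0.0033). GLUD1, glutamate dehydrogenase, was at 374 ± 68.7 CPM in MB TE and 352 ± 62.9 CPM in MB ICM and at 144 CPM in LB TE against 1002 CPM in LB EPI (difference -2.77, SE 0.35, adjusted p = 0.000973). Without replicate 3, which leaves 1 LB TE average, 0 genes were called and 770 of 11926 had an unadjusted p under 0.05. The count was 11 without replicate 1, 13 without replicate 2 and 10 without replicate 5.

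The lists were counted on day 9 as well, and the change of a list's count between days was not tested. Trophectoderm factors were 11 higher and 0 lower of 21 on day 9, S100 proteins and annexins 10 and 0 of 15, tight junction genes 8 and 0 of 18, and lysosomal genes 10 and 0 of 24. Ruminant placental genes were 10 higher and 2 lower of 12 on day 9, with a median log2 change of 2.46. Keratins and plakins were 6 and 0 of 11, adherens junction and desmosome genes 8 and 0 of 17, and apical polarity and Hippo genes 7 and 2 of 26. Falls on day 9 were also found among genes of the actin cortex (8 higher and 3 lower of 24) and of ion and water transport (6 higher and 3 lower of 15). Sterol and fatty acid synthesis genes, with 1 call on day 8, had 11 higher and 0 lower of 24 on day 9, and 0 of them had a called difference between days. Of those 24 genes 5 were higher and 1 lower on day 8 at an unadjusted p under 0.05, and limma-voom called 0 on day 8. Hypoblast genes were 4 lower and 1 higher of 19 on day 9. That count is against LB EPI, the epiblast alone, while the MB ICM averages of day 8 do not separate epiblast from hypoblast. The primitive endoderm class of day 9, LB PE, did not enter it, so the hypoblast counts of the days are not like for like. Pluripotency factors were 12 lower and 0 higher of 23.

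Markers of other cells that a sample could hold were summed in each library average. Over 14 cumulus and granulosa genes, library averages ran from 17.9 to 31.8 CPM in MB TE and from 48.3 to 140.7 CPM in MB ICM. For 12 fibroblast genes, which include matrix genes, the sums ran from 98.2 to 170.3 CPM and from 165.5 to 899 CPM. Sperm genes summed to 10.6 to 42.8 CPM in MB TE and 18.1 to 67.6 CPM in MB ICM, with the protamine PRM1 at 0. Blood cell genes summed to 16.9 to 30.6 CPM and 26.6 to 61.3 CPM, with CD79A at 0. The highest sum was in MB ICM for each list, the class with the shallower cells, and only the cumulus ranges did not overlap. The part of such cells in the results was not tested. Over the members tested in these lists, limma called COL6A2 of the fibroblast list lower (log2 change -1.40), which did not pass without replicate 1, 2 or 3 (adjusted p = 0.0567, 0.333 and 0.177). Of the 10 cumulus, 2 sperm and 5 blood cell genes tested limma called 0. At an unadjusted p under 0.05 there was 1 lower cumulus gene, and limma-voom called 2 cumulus genes higher. With cells under 40000 reads left out, an alternative chosen after the depths were seen, 1542 genes were called, 835 higher and 707 lower, and 1151 of them were among the 1264. That setting raised the log2 change of KRT18 from 4.46 to 5.15, of PLS1 from 3.31 to 3.95, of FXYD4 from 2.63 to 3.32, of RAB25 from 2.26 to 2.88 and of PTGS2 from 2.59 to 3.23. RN7SL1 moved from -3.39 to -2.13 and DNMT1 from -2.32 to -1.64. POU5F1 (adjusted p = 0.171), HDAC2 (adjusted p = 0.0536) and PSMA7 (adjusted p = 0.172) did not pass in it. Ribosomal protein genes had 11 falls of 35 in place of 3 (0 by limma-voom), and glucose and lactate genes 4 rises and 3 falls of 22.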

How the data were processed

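Single-cell RNA was measured in pooled, barcoded libraries of bovine embryos, and the 6 wildtype libraries were used (replicates 1 to 6, of 8 in the labels). Trim Galore, HISAT2, featureCounts and Seurat, without versions, and genome build ARS-UCD1.2 are named in the submitters' processing notes. The sources used here do not give strand use, the treatment of reads with several matches or any use of molecular identifiers, so genes with near copies or antisense partners are uncertain. The abundances that the authors deposited are natural log values of 1 plus a gene's share per 10000, with 18825 genes in rows. With the log undone each cell summed to 10000, and 100% of values were whole multiples of a cell's smallest step (tolerance 0.1 reads), which gave each cell's reads. The cell table lists 288 cells, of which 286 have values and 2, both MB ICM, do not. The 2 rows with a repeated name were left out, leaving 18823 genes.

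Values were rescaled to CPM, and the cells of each class in a library were averaged where there were at least 3, giving 16 averages over 7 classes. Log2(CPM + 10) was fitted with limma 3.58.1 (statmod 1.5.0, data.table (1.17.8) and R 4.3.3, with trend and robust options), so changes of low genes are understated. Tested genes reached 10 CPM in at least 1 average, the size of the smallest group. The library was a random block (consensus correlation 0.18), because classes of 1 library deviated together (correlation 0.25 in both replicates 1 and 2). Adjusted p-values of genes come from limma with Benjamini-Hochberg adjustment over all tested genes. SE is the standard error of a log2 change. Cells under 40000 reads do not enter thinned shares. On data simulated for this comparison (12538 genes), 22% of 100 genes changed by 1 on the log2 scale and 88% of 100 changed by 2 were recovered, with 6 false calls. Only these genes were changed, while 10.1% of genes were called in the data, and the noise was normal with the fitted spread. Recovery and false calls in the data may therefore differ. Tables and figures were made with Python 3.11.15, pandas 2.3.3, numpy 2.4.6 and matplotlib 3.10.9.

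The members, the 39 gene lists (895 members, 852 in the table), the tests and the alternatives were chosen with earlier results of these data known. Named were 14 lineage genes, up to 20 called genes each way by size of change (with a symbol, and with the same direction in replicates 1 and 2), up to 4 members per list by adjusted p (with fewer than 2 calls, the 2 of highest level), and up to 5 genes each way for the day 9 difference. The text prints part of these, and other called members of a list were named after their values were seen. Alternatives changed the averaging, scaling, pseudocount, filter, weights, block and libraries, and limma-voom was run on recovered reads. The other two libraries, from injected embryos, were not analysed here, and promoter sequences were not used here. Some called genes are not reported here.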

Additional observations from a re-analysis of the deposited data

Results flagged for a closer look

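The difference between MB TE and MB ICM on day 8 was set against that between LB TE and LB EPI on day 9. By limma's test of the difference between days (adjusted p under 0.05), 15 of the genes named by the rule differed. Other members of the gene lists with a called difference between days were not counted here. Of the 15, 10 had a positive and 5 a negative difference, day 9 minus day 8. The rule named up to 5 genes each way because this difference was called, so both counts follow largely from the rule. Over all tested genes 27 called differences were positive and 19 negative. Among genes called lower in MB TE on day 8, the difference was 2.20, SE 0.48, adjusted p = 0.0459 for PDGFRA, 1.85, SE 0.37, adjusted p = 0.0296 for FN1 and 2.65, SE 0.53, adjusted p = 0.0296 for FLRT3. It was 2.40, SE 0.49, adjusted p = 0.0328 for SLC1A3 and 3.66, SE 0.66, adjusted p = 0.0185 for PHGDH. For SLC6A20 it was 3.31, SE 0.48, adjusted p = 0.00223. The MB ICM averages do not separate epiblast from hypoblast, while LB EPI is epiblast alone. LB PE, the primitive endoderm class, did not enter the difference. LB PE held 299 CPM of PDGFRA, 4593 of FN1 and 197 of FLRT3, against 19.9, 605 and 16.4 CPM in LB EPI. SLC1A3 was at 174 CPM in LB PE against 3.31 CPM in LB EPI, and SLC6A20 at 263 against 23.7 CPM. PHGDH was not higher in LB PE than in LB EPI. LB TE was not tested against LB PE here. MPZL2 (2.95, SE 0.42, adjusted p = 0.00194), FOLR1 (2.87, SE 0.43, adjusted p = 0.00232), SORD (2.20, SE 0.37, adjusted p = 0.00997) and MOGAT1 (2.66, SE 0.47, adjusted p = 0.0123) had no call on day 8. MPZL2, a junctional adhesion protein, was at 228 CPM in LB TE against 23.9 CPM in LB EPI on day 9. SORD, sorbitol dehydrogenase, was at 371 CPM in LB TE against 43.4 CPM in LB EPI, and MOGAT1, a monoacylglycerol acyltransferase, at 113 CPM in LB TE against 13.2 CPM in LB EPI.

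Negative differences were found for LRRC3 (-3.91, SE 0.51, adjusted p = 0.000973), GLUD1 (-2.77, SE 0.35, adjusted p = 0.000973), ERAS (-3.78, SE 0.58, adjusted p = 0.0033), AGPAT5 (-2.47, SE 0.43, adjusted p = 0.0111) and ICOSLG (-3.11, SE 0.57, adjusted p = 0.0183). AGPAT5, an acyltransferase of phospholipid synthesis, was at 165 ± 58.02 CPM in MB TE and 72.3 ± 30.3 CPM in MB ICM (SD, n = 3 each), and at 80.00 CPM in LB TE against 230.5 CPM in LB EPI. Its day 8 call did not hold without replicate 1 or 5 (adjusted p = 0.165 and 0.0826). LRRC3 was at 11.5 CPM in LB TE against 263 CPM in LB EPI and ICOSLG, a T cell co-stimulatory ligand, at 29.3 CPM in LB TE against 213 CPM in LB EPI. Without replicate 3 limma called 0 genes for the difference between days, and 770 of 11926 genes had an unadjusted p under 0.05.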

How the results depend on the processing

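In 19 alternative settings, the 137 named genes with a call kept their direction wherever they were tested. The call held, wherever the gene was tested, for 93 of them in the 6 fits that left out a replicate and for 92 in the 19 settings. A setting that did not test a gene did not count against its call. Counts of called genes moved more. Leaving out each replicate in turn gave 635 to 1260 called genes, 425 to 731 higher and 210 to 529 lower. Averages of at least 5 cells gave 818 calls with 257 lower, the table without a filter on low values 314 lower, and mean log2 values over cells 1275 higher, with the median of all genes at 0.07 in place of -0.04. The fit with no replicate block, that is without pairing the classes of 1 library, called 975 genes, all among the 1264, and the replicate block as a fixed term called 1063. The difference between days rested on the setting, with 46 genes called against 155 with mean log2 values over cells, 98 with limma-voom, 11 at a pseudocount of 1, 86 at a pseudocount of 50, 10 without a filter and 13 with at least 5 cells. It gave 197 with averages weighted by cells, 13 with no replicate block, 113 with cells under 40000 reads left out, and 0 to 49 without a replicate. The cause of these shifts was not tested. Depth was lowest in 8 MB ICM cells with under 40000 reads, and leaving out such cells gave 1542 called genes in place of 1264.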
